A study of Komagataella pastoris with 6 samples.

Results

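The nuclear genes of mitochondrial ribosomal proteins were examined in a methylotrophic yeast, *Komagataella pastoris* (also *Pichia pastoris*). Members were the genes whose product description in the table of all samples names a mitochondrial ribosomal component, tRNA-related descriptions left out, which gave 59 of 5030 genes. By their descriptions 27 belong to the small subunit (the 37S particle) and 31 to the large subunit (the 54S particle). The remaining gene is a mitochondrial ribosome recycling factor, which is not a structural protein of the ribosome. It is counted among the 59 members but in neither subunit. A symbol is given for 39 members, and the other 20 are known here by locus tag. The rule reads descriptions and no measured value.

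The control strain HTX-33, labelled as wild type, gave 3 libraries, as did the engineered strain HTX33_ILV3 (below, the ILV3 strain), in which Ilv3, an enzyme of valine and isoleucine synthesis, is overexpressed. Both strains were under methanol induction in a salt medium with 0.5% methanol and were harvested in exponential phase; the series describes the libraries of a strain as biological replicates. The promoter that drives the introduced gene and the number of clones behind the strain are not stated in the sources used here. ILV3 itself rose from 86.5 ± 6.19 to 2626 ± 58.2 TPM (SD, n = 3). The level of ILV3 transcripts does not tell the native from the introduced copy.

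Mitochondrial ribosomes translate the few messages of the mitochondrial genome, which code mainly for membrane subunits of the respiratory chain and of the ATP synthase. Nearly all of their proteins are encoded in the nucleus, made in the cytosol and imported, and they assemble with ribosomal RNA made inside the organelle. The small subunit binds and decodes the message, and the large subunit forms the peptide bond. Many of the proteins have a counterpart in bacterial ribosomes, while others occur in mitochondria alone; the counterparts named below are those of the *Saccharomyces cerevisiae* proteins with the same names.

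Levels are given in TPM, a transcript share scaled by length that sums to 1000000 in each library. The deposited columns are named FPKM but have this sum, which alone does not show how length was treated. Strain ratios are given as log2 fold changes, ILV3 strain over control, of TPM + 1. A gene counts as called where limma's Benjamini-Hochberg adjusted p over all tested genes was under 0.05. Since such values keep no sequencing depth, counting error cannot be given, and the p-values measure the spread between the 3 libraries of each strain. In whole-culture RNA, fewer copies per cell and a smaller share of cells with the transcript cannot be told apart. Across all tested genes, which are not independent replicates, r of the log2 values was 0.986 to 0.992 within a strain and 0.963 to 0.968 between strains.

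Mitochondrial ribosomal protein transcripts were of moderate abundance and the typical levels of both subunits were close. The mean level over the 6 libraries had a median of 74.5 TPM among small-subunit genes and 71.2 TPM among large-subunit genes, against 48.8 TPM over all tested genes. The middle 50% of genes lay between 50.9 and 104 TPM in the small subunit and between 51.5 and 111 TPM in the large one. In every library the ratio of the small-subunit to the large-subunit median lay close to 1, from 0.980 to 1.02 in the control and from 0.999 to 1.02 in the ILV3 strain. Cytosolic ribosomal proteins, 84 genes by their descriptions, had a median of 1538 TPM and held 14.03% ± 0.0612 of the summed TPM in the control, against 0.717% ± 0.00922 for the 59 mitochondrial genes.

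The subunits differed in how far their highest members stood above the rest. In the small subunit the levels spanned 12.6-fold, with no mean over the 6 libraries above 180.2 TPM. In the large subunit they spanned 87.5-fold, and the SD of the log2 levels across genes was 1.23, against 0.84 in the small subunit. The 3 highest genes made up 53.4% of the summed level of the large subunit and 22.4% of that of the small subunit.

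The wide range of the large subunit came from its top. YmL39 (PAS_chr3_1135), the counterpart of bacterial L33, was at 2005, 1963 and 1822 TPM in the control and at 1420.1, 1469 and 1767 TPM in the ILV3 strain. Its mean was 24.5 times the median of the other large-subunit genes, and lay above the median of the cytosolic ribosomal proteins. YmL37 (PAS_chr4_0904), a protein without a bacterial counterpart, came next, at 455, 578 and 429 TPM in the control and 535, 515 and 480.1 TPM in the ILV3 strain, so that the strains overlapped. YmL31 (PAS_chr1-4_0484), also found in mitochondria alone, was at 244, 244 and 249.8 TPM in the control. In the ILV3 strain it was at 294, 261 and 269.9 TPM, each above every control library.

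At the bottom of the large subunit lay 3 genes with bacterial counterparts. YmL7/YmL5 (PAS_chr4_0799), the counterpart of L5, was at 18.5, 18.3 and 23.4 TPM in the control and 18.9, 19.7 and 20.6 TPM in the ILV3 strain. MRPL1 (PAS_chr3_0474), the counterpart of L1, which forms the stalk where the spent tRNA leaves, was at 31.4, 30.3 and 35.1 TPM in the control and 30.1, 32.03 and 30.7 TPM in the ILV3 strain. YmL23 (PAS_chr4_0905), the counterpart of L13, was at 32.4, 32.1 and 35.5 TPM in the control and 32.05, 41.0 and 32.5 TPM in the ILV3 strain, with its highest value in ILV3 replicate 2. The strains overlapped for each of these 3 genes.

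The small subunit had a flatter top. MRP2 (PAS_chr1-1_0100), the counterpart of S14, was highest at 199, 186 and 183 TPM in the control, followed by RSM19 (PAS_chr3_1117), the counterpart of S19, at 169, 176 and 198 TPM. In the ILV3 strain RSM19 was at 175, 144 and 177 TPM, which overlapped with the control. An unnamed small-subunit gene, PAS_chr1-1_0296, came next at 151, 149 and 152 TPM. The lowest member of all was the unnamed PAS_chr4_0067, at 14.1, 14.4 and 15.2 TPM in the control and 13.8, 14.6 and 13.6 TPM in the ILV3 strain. RSM25 (PAS_chr2-2_0170), found in mitochondria alone, and the unnamed PAS_chr4_0788 were next, with means over the 6 libraries of 32.7 and 35.4 TPM. PAS_chr4_0788 was at 35.8, 32.8 and 34.8 TPM in the control and 39.99, 33.2 and 36.0 TPM in the ILV3 strain, which overlapped. In the plot of all members by library the first 3 large-subunit genes do not overlap with each other or with any later gene, whereas RSM19 overlaps with its neighbours in the small-subunit order.

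**Figure D1:**
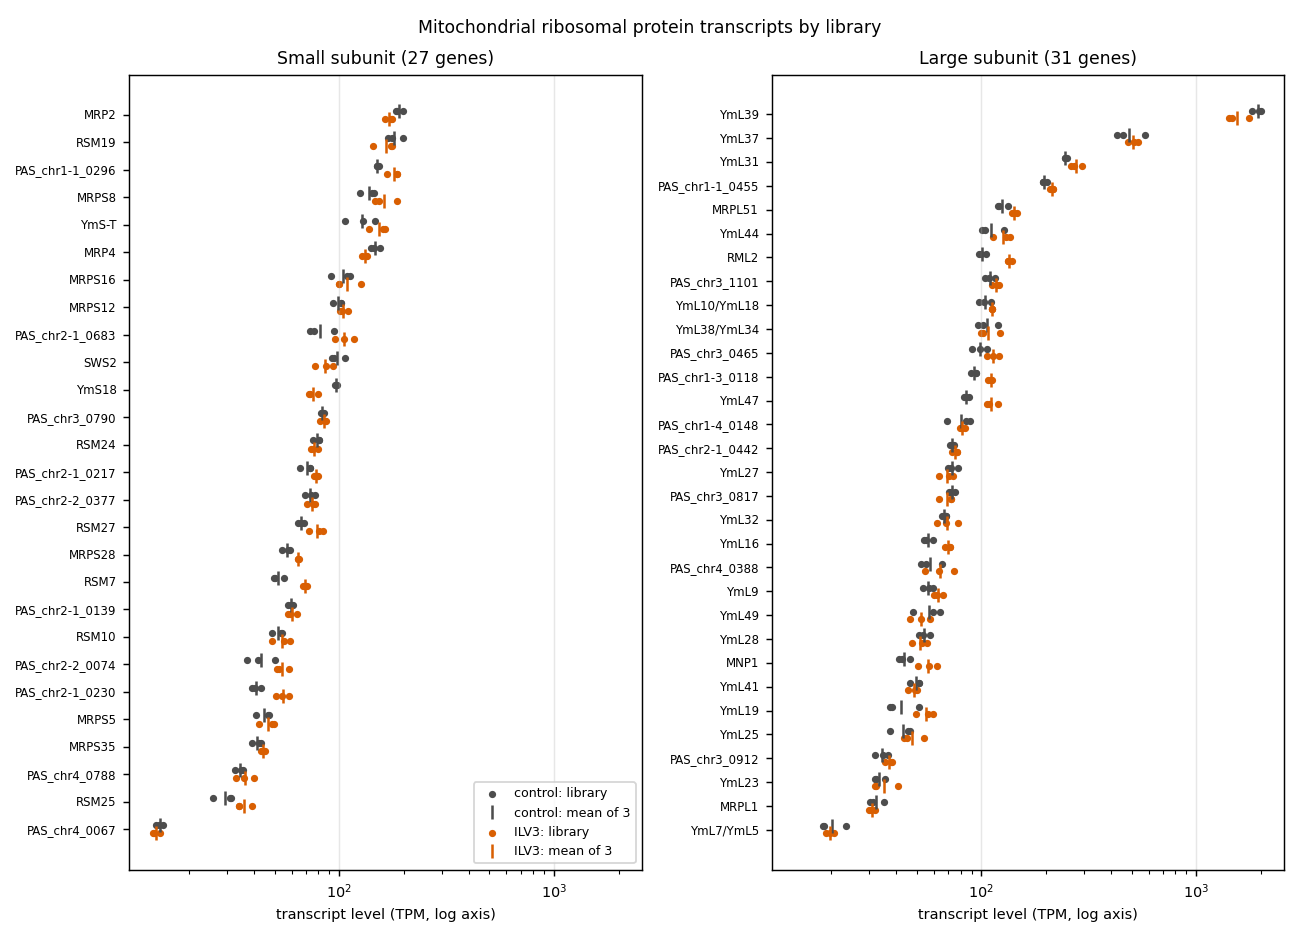
Level of each small-subunit (left) and large-subunit (right) gene in TPM on a log axis, ordered by the mean over the 6 libraries; points are libraries, ticks are means of 3, grey is the control and orange the ILV3 strain. YmL39 stands at 1420.1 to 2005 TPM, while no small-subunit gene has a mean above 180.2 TPM.

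The typical replicate spread of the genes lay somewhat below that of all tested genes in the small subunit and somewhat above it in the large one. The SD within a strain, pooled over both strains on the log2 scale, had a median of 0.068 over the 27 small-subunit genes and 0.097 over the 31 large-subunit genes, against 0.078 over all tested genes. Split by strain, the medians were 0.071 and 0.082 in the control for the small and large subunit, and 0.086 and 0.089 in the ILV3 strain. Over all tested genes the medians were 0.079 in the control and 0.063 in the ILV3 strain. In the ILV3 strain both subunits thus lay above the typical gene. The gap between the subunits was small beside the range of single genes, from 0.040 to 0.185 in the small subunit and from 0.032 to 0.199 in the large subunit. The difference was not tested, since genes measured in the same libraries are not replicates.

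The steadiest gene was the unnamed large-subunit PAS_chr1-1_0455, at 193, 193 and 201 TPM in the control and 215, 215 and 208 TPM in the ILV3 strain. The least steady was YmL19 (PAS_chr1-3_0107), the counterpart of L11, which was at 51.3, 37.5 and 38.2 TPM in the control. An SD of at least 0.15 was found for 5 small-subunit and 7 large-subunit genes, among them YmL37 and the small-subunit YmS-T, at means of 499 and 140.3 TPM. Control replicate 2 had the lowest typical value in both subunits. Its members lay a median of 0.10 (small) and 0.08 (large) below their mean over the 6 libraries on the log2 scale, and all tested genes lay 0.05 below.

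**Figure D2:**
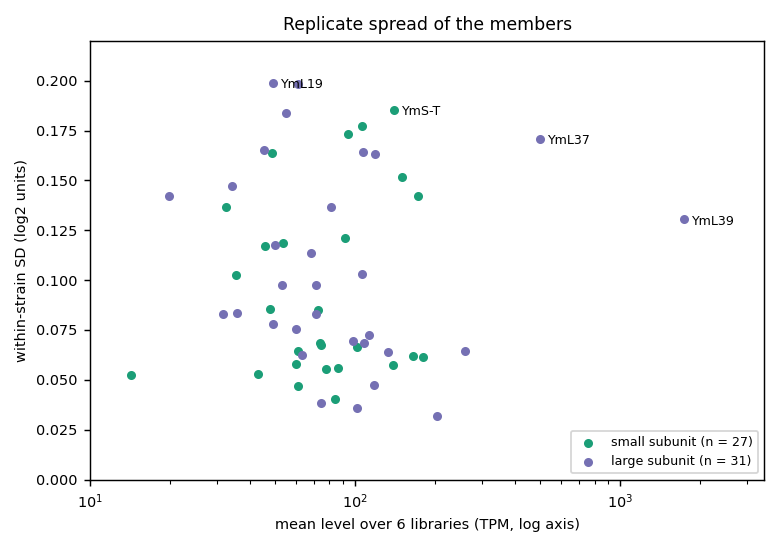
Within-strain SD of each gene in log2 units against its mean level in TPM on a log axis, by subunit (27 small, 31 large). Both subunits cover the same range of spread, and YmL37 and YmL39 have SDs of 0.171 and 0.131 at the highest levels.

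The comparison of the strains asks how these transcripts differ when Ilv3 is overproduced. All 59 members passed the filter on low values (a mean of at least 1 TPM). Of them 18 were called higher in the ILV3 strain and 5 lower, and 36 were not called. Without the recycling factor 18 were higher and 4 lower. Over all 5025 tested genes 49.3% were called, 22.1% higher and 27.2% lower, and of the members 30.5% were called higher and 8.47% lower. The median log2 fold change was 0.08 over the members and -0.02 over all tested genes. With quantile normalization 28 members (47.5%) were called higher and 3 (5.08%) lower, against 29.8% and 25.4% of all tested genes. With the replicate number as a block 16 (27.1%) were higher and 3 (5.08%) lower, against 19.6% and 24.4%. Without ILV3 replicate 3 the counts were 11 higher (18.6%) and 3 lower (5.08%), against 19.6% and 22.6%, so the share called higher was then close to the background. Without control replicate 1 or ILV3 replicate 2 the lower count was also 3. No member changed as much as 2-fold, whereas 3.1% of all tested genes were called with a change of at least 2-fold. In 22 members every ILV3 library lay above every control library, and in 5 every one lay below, against 26.8% and 30.5% of all tested genes. In sum 45.8% of the members did not overlap between strains, against a background of 57.2%.

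Small and large subunits had similar strain ratios. In the small subunit 8 of 27 genes were higher and 3 lower, with a median log2 fold change of 0.07, and the middle 50% of genes lay between -0.02 and 0.25. In the large subunit 10 of 31 genes were higher and 1 lower, with a median of 0.11 and a middle 50% from 0.00 to 0.19. Both subunits had their largest rise at 0.42. The small-subunit median was 0.04 without ILV3 replicate 1 and 0.05 without control replicate 2, and the large-subunit median was 0.07 without control replicate 2. Among cytosolic ribosomal proteins 4 of 84 genes (4.76%) were higher and 24 (28.6%) lower, with a median of -0.04. Their share called lower was close to that of all tested genes (27.2%), and their share called higher was below the 22.1% of all tested genes. That list was built from descriptions after its planned wording had matched 1 gene only. The distribution plot places both mitochondrial subunits to the right of the cytosolic proteins over most of their range. With quantile normalization the medians were 0.13 and 0.19, and 0.02 over all tested genes.

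**Figure D3:**
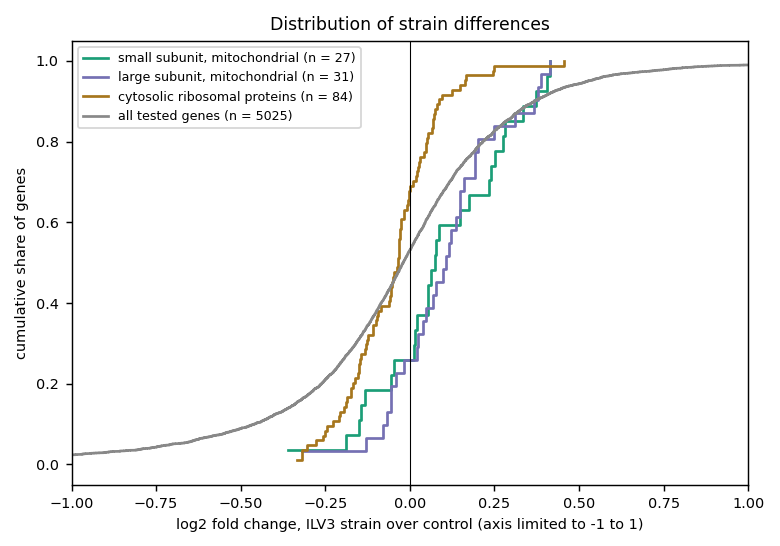
Cumulative share of genes by log2 fold change of the ILV3 strain over the control for the 27 small-subunit and 31 large-subunit genes, the 84 cytosolic ribosomal proteins and all 5025 tested genes; the axis is limited to -1 to 1. The medians are 0.07, 0.11, -0.04 and -0.02 in that order.

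Among the large-subunit genes that rose, RML2 (PAS_chr1-1_0192) had the lowest adjusted p. It is the counterpart of L2, a protein near the peptidyl transferase centre, and was at 106, 97.7 and 99.2 TPM in the control and 133, 138 and 133 TPM in the ILV3 strain. The groups were well apart (log2 fold change 0.42, SE 0.05, adjusted p = 0.0001 with limma). YmL47 (PAS_chr1-4_0557), the counterpart of L16, rose from 82.9, 87.8 and 84.6 TPM to 109, 106 and 119 TPM (log2 fold change 0.38, SE 0.06). YmL16 (PAS_chr2-2_0241), the counterpart of L6, rose from 53.9, 55.4 and 59.8 TPM to 71.3, 71.2 and 67.6 TPM (log2 fold change 0.31, SE 0.06).

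MNP1 and YmL19 are the counterparts of L7/L12 and L11, which in bacteria lie at the stalk where translation factors bind. MNP1 (PAS_chr1-4_0358) rose from 41.6, 42.7 and 46.3 TPM to 62.0, 50.5 and 57.2 TPM (log2 fold change 0.37, SE 0.08, adjusted p = 0.00421 with limma). YmL19 was at 59.8, 49.8 and 56.1 TPM in the ILV3 strain, against the control values given above. Its lowest ILV3 library lay under control replicate 1, so that its groups overlapped although it was called (log2 fold change 0.39, SE 0.12, adjusted p = 0.0238 with limma). That call was lost without control replicate 2 or 3 (adjusted p = 0.0800 and 0.0764) and without ILV3 replicate 1 or 3 (0.0800 and 0.0634), within a range up to 0.0800 over its alternatives. The other 5 large-subunit genes called higher had log2 fold changes between 0.12 and 0.25. Of these, PAS_chr1-1_0455 and PAS_chr3_0465 lost the call in 7 and 6 of 15 alternatives (adjusted p up to 0.114 and 0.131), the replicate block (0.114) among those of PAS_chr1-1_0455. The largest of the 5 changes was in the unnamed PAS_chr1-3_0118, which rose from 92.8 ± 2.52 to 110.4 ± 2.52 TPM (SD, n = 3).

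RSM7 rose most in the small subunit. RSM7 (PAS_chr1-1_0098), the counterpart of S7, which organises the head of the subunit, was at 55.6, 49.7 and 50.3 TPM in the control and 69.6, 70.5 and 68.2 TPM in the ILV3 strain (log2 fold change 0.42, SE 0.06, adjusted p = 0.000295 with limma). Its ILV3 libraries were tightly grouped and all above the control. The unnamed PAS_chr2-1_0230 rose from 39.4, 40.4 and 43.2 TPM to 50.8, 58.6 and 54.5 TPM (log2 fold change 0.40, SE 0.07). The unnamed PAS_chr2-1_0683 rose from 73.5, 94.95 and 76.2 TPM to 117, 95.4 and 105 TPM, where the highest control and the lowest ILV3 library nearly met. The log2 fold change, 0.37 (SE 0.10), had an adjusted p of 0.0150 with limma. It was 0.30 without ILV3 replicate 1 (adjusted p = 0.0537, the highest over its alternatives).

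PAS_chr2-2_0074, also unnamed, rose from 50.1, 37.2 and 41.9 TPM to 52.7, 51.5 and 58.4 TPM. The log2 fold change, 0.33 (SE 0.10), had an adjusted p of 0.0225 with limma. The call was lost without control replicate 2 or 3 (adjusted p = 0.0578 and 0.0583) and without ILV3 replicate 3 (0.0787, the highest over its alternatives). The other 4 small-subunit genes called higher had log2 fold changes between 0.17 and 0.28. PAS_chr1-1_0296, near the top of the order, rose to 168, 186 and 186 TPM (log2 fold change 0.25, SE 0.05). MRPS28 (PAS_chr2-1_0384), the counterpart of S15, rose by 0.17, a call lost with the replicate block (adjusted p = 0.0573) and without ILV3 replicate 2 or 3 (0.0541 and 0.0569). RSM25, at the bottom of the order, rose from 31.4, 25.8 and 31.1 TPM to 39.4, 34.2 and 34.2 TPM; its call was lost without control replicate 2 (adjusted p = 0.0600) and without ILV3 replicate 1 (0.108, the highest over its alternatives).

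The genes that fell included the highest of each subunit and the recycling factor. The recycling factor (PAS_chr4_0253), which splits ribosomes after termination, fell from 183, 169.5 and 181 TPM to 131, 144 and 129.6 TPM (log2 fold change -0.39, SE 0.05, adjusted p = 0.000356 with limma), the largest fall of the 59. YmS18 (PAS_chr4_0813), the counterpart of S11 on the platform of the small subunit, fell from 96.5, 95.8 and 97.5 TPM to 80.0, 73.2 and 72.4 TPM, a log2 fold change of -0.36 with an SE of 0.05. YmL39 fell from 1929.6 ± 95.9 to 1552 ± 188 TPM (SD, n = 3; log2 fold change -0.32, SE 0.08, adjusted p = 0.00946 with limma). Its ILV3 replicate 3, at 1767 TPM, lay just below the lowest control library.

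The other falls were small. MRP2 was at 177, 163 and 174 TPM in the ILV3 strain, below each control library (log2 fold change -0.15, SE 0.05, adjusted p = 0.0389 with limma). MRP4 (PAS_c131_0005), the counterpart of S2, fell from 145, 140.4 and 154 TPM to 135, 133 and 128 TPM (log2 fold change -0.15, SE 0.05, adjusted p = 0.0322 with limma). Both calls were lost with the replicate number as a block (adjusted p = 0.0619 for MRP2 and 0.0771 for MRP4), with quantile normalization (0.275 and 0.323, the highest over their alternatives), without a mean-variance trend (0.0660 and 0.0535), and without control replicate 1 (0.141 and 0.0648), ILV3 replicate 2 (0.136 and 0.0678) or ILV3 replicate 3 (0.0682 and 0.110). MRP2 also lost its call with median-ratio scaling (0.0967), and MRP4 without control replicate 3 (0.126). With quantile normalization their log2 fold changes were -0.07 and -0.05. The locus tags of RSM7 and MRP2 lie 2 numbers apart, yet RSM7 was called higher and MRP2 lower. Pairs with tags 1 number apart shared a sign. The log2 fold changes were 0.15 and 0.31 for YmL9 (PAS_chr2-2_0240) and YmL16, and 0.08 and 0.07 for YmL37 and YmL23. Of these genes only YmL16 was called.

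**Figure D4:**
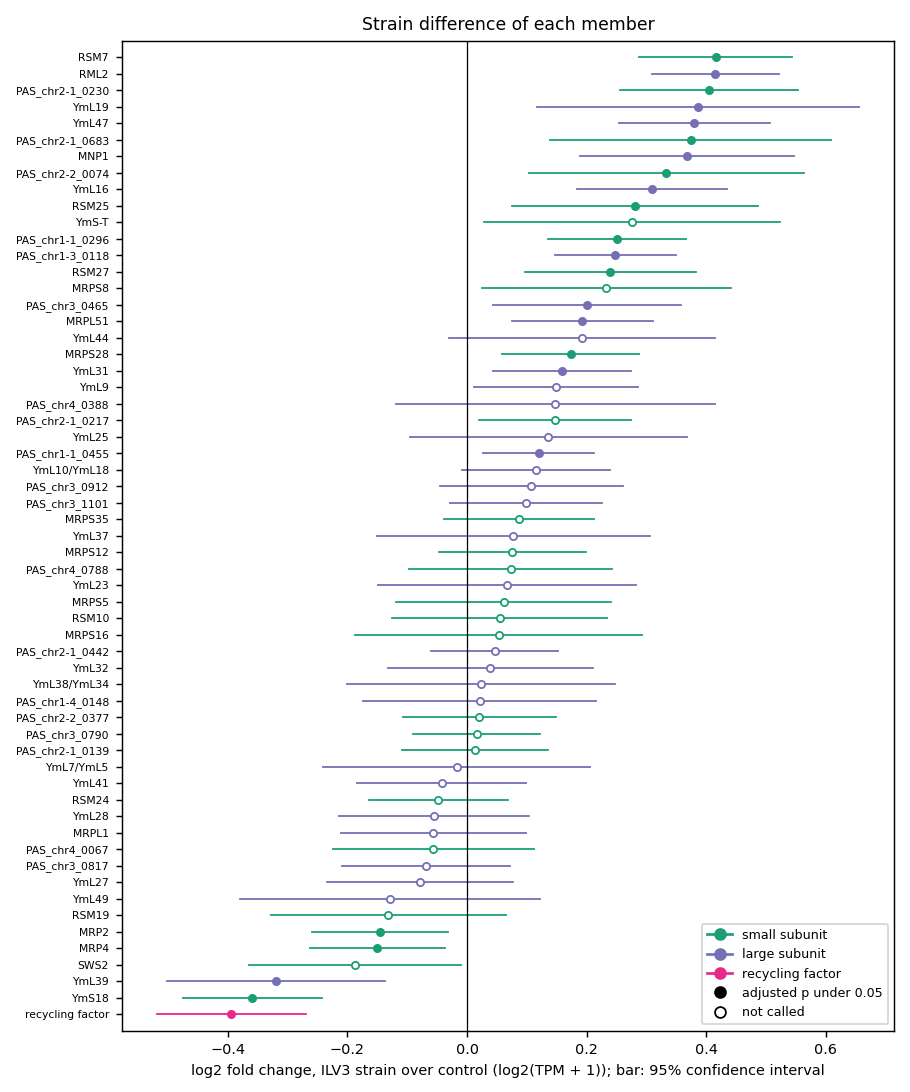
Log2 fold change of each of the 59 members, ILV3 strain over control, with its 95% confidence interval from limma; filled points have an adjusted p under 0.05 and colours give the subunit. Estimates run from -0.39 for the recycling factor to 0.42 for RSM7 and RML2, and 36 points are open.

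The authors' deposited table, which also holds the levels, gives its own log2 fold changes. For the highest member this value differs from the ratio of the deposited levels. For YmL39 the authors' deposited table lists -0.08 with p = 0.551, against -0.32 here, the largest gap among the 59 members. For MRP2 the authors' deposited table lists -0.03 with p = 0.793. A gap of more than 0.1 was found for 10 members, and for each of the 59 the authors' deposited table had the higher value. The median signed gap, authors' value minus the one here, was 0.04 over the members and 0.02 over all tested genes. Over all tested genes the median absolute gap was also 0.02. Of the 23 members called here, 21 have p under 0.05 and the same sign in the authors' deposited table. All 18 risers and 3 fallers are among them. Whether that p is adjusted is not stated. Of all 5030 genes, 2751 have such a p, as do 23 members with a rise and 3 with a fall. Both comparisons use the same 6 libraries. The authors' deposited table lists -0.37 for the recycling factor and -0.33 for YmS18. It also has p under 0.05 for 5 members not called here, all higher: YmS-T, MRPS8, YmL9, YmL10/YmL18 and PAS_chr2-1_0217. The sources used here do not say how those fold changes were computed, and the source of the gap was not tested.

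Whether the subunits moved together in total depended on YmL39. The summed level of the small subunit was 2272, 2214 and 2275 TPM in the control and 2396, 2319 and 2395 TPM in the ILV3 strain, without overlap. That of the large subunit was 4769.8, 4837 and 4607 TPM in the control and 4541, 4502 and 4825 TPM in the ILV3 strain, which overlapped. YmL39 alone held 40.7% ± 1.25 of the large-subunit sum in the control and 33.5% ± 2.79 in the ILV3 strain (SD, n = 3). The sums use the deposited levels of this gene, for which the authors' deposited table lists a log2 fold change of -0.08 with p = 0.551. Without YmL39 the large-subunit sum was 2765, 2874 and 2786 TPM in the control and 3121, 3033 and 3057 TPM in the ILV3 strain, with all ILV3 libraries higher.

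The strain difference in the ratio of the summed levels changed its direction with YmL39, whereas the ratio of the subunit medians hardly differed between strains. The latter was 1.008 ± 0.0243 in the control and 1.011 ± 0.0109 in the ILV3 strain (SD, n = 3). The small-subunit sum divided by the large-subunit sum was 0.476, 0.458 and 0.494 in the control and 0.528, 0.515 and 0.496 in the ILV3 strain, so that the lowest ILV3 library lay just above the highest control library. Without YmL39 the ratio was 0.822, 0.770 and 0.817 in the control and 0.768, 0.765 and 0.783 in the ILV3 strain, which overlapped and had the lower mean in the ILV3 strain. Between same-numbered libraries the ratio without YmL39 was lower in the ILV3 strain in 3 of 3 pairs. With YmL39 it was higher in 3 of 3, which the lack of overlap gives under any pairing. No p is given for these sums, since they are scores over chosen genes.

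**Figure D5:**
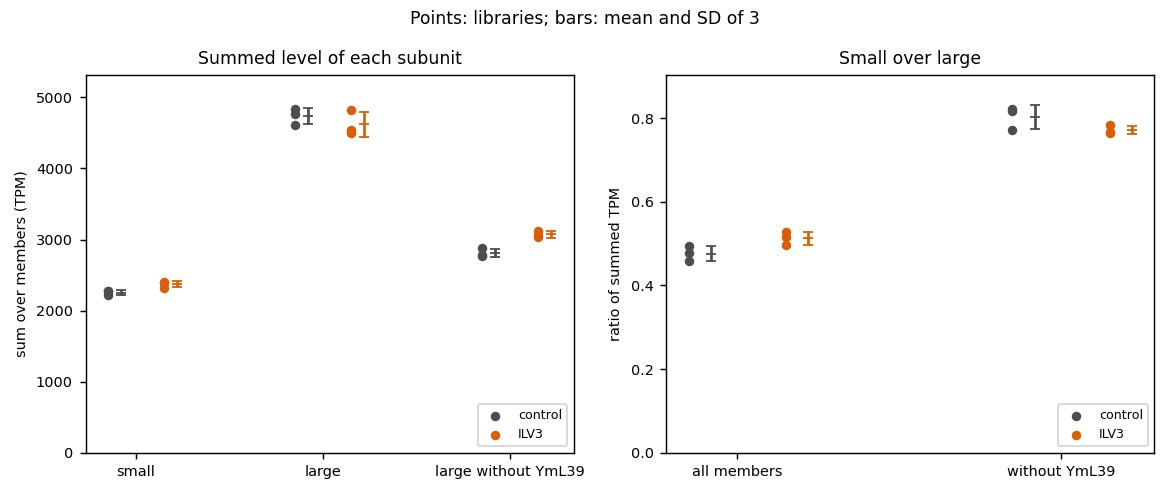
Summed TPM of the small subunit, the large subunit and the large subunit without YmL39 (left), and the ratio of the small-subunit to the large-subunit sum with and without YmL39 (right); points are libraries and bars are mean and SD of 3. Leaving out YmL39 turns a mean ratio that is higher in the ILV3 strain (0.513 against 0.476) into a lower one (0.772 against 0.803).

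By descent of the proteins, 27 of the 38 members with an assigned counterpart class have a bacterial counterpart and 11 occur in mitochondria alone. Of the 27, 7 (25.9%) were higher and 4 (14.8%) lower, with a median log2 fold change of 0.05, against 22.1% and 27.2% of all tested genes. Of the 11, 4 (36.4%) were higher (YmL31, MRPL51, RSM25 and RSM27) and 0 lower, with a median of 0.14. At an unadjusted p under 0.05 limma also gave 4 of these 11, all higher. MRPL51 (PAS_chr1-4_0171) rose from 124 ± 7.22 to 142 ± 3.79 TPM and RSM27 (PAS_chr1-4_0469) from 66.5 ± 2.38 to 78.8 ± 5.94 TPM (SD, n = 3). The MRPL51 call was lost without ILV3 replicate 3 (adjusted p = 0.0508, the highest over its alternatives). The YmL31 call (log2 fold change 0.16, adjusted p = 0.0284 with limma) was lost in 7 of 15 alternatives, among them the replicate block (0.0507) and every omission of a library other than ILV3 replicate 2 (0.0503 to 0.0940). The difference between the classes was not tested.

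By level, the counts were as follows, with 22.1% of all tested genes called higher and 27.2% lower. Of the 14 members under 50 TPM, 4 were higher and 0 lower with limma, and at an unadjusted p under 0.05 also 0 were lower. Of the 24 members from 50 to 100 TPM, 7 were higher and 1 lower, and of the 21 at 100 TPM or more, 7 were higher and 4 lower. The bands had median log2 fold changes of 0.08, 0.04 and 0.12.

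Of the members not called, several stood close to the threshold. MRPS8 (PAS_chr1-1_0385), the counterpart of S8, was at 145, 125 and 142 TPM in the control and 148, 153 and 187 TPM in the ILV3 strain, all of the latter above the control. Its log2 fold change of 0.23 had a confidence interval of 0.02 to 0.44 and an adjusted p of 0.0632 with limma, which became 0.0271 with the replicate block, 0.0200 with quantile normalization and 0.0364 without ILV3 replicate 1 (range up to 0.185 over its alternatives). SWS2 (PAS_chr3_0520), the counterpart of S13, was at 97.7 ± 7.17 and 85.8 ± 8.13 TPM (SD, n = 3; adjusted p = 0.0761 with limma), and at 0.0352 without ILV3 replicate 1 (range up to 0.261 over its alternatives). For YmL37 the interval of the log2 fold change, -0.15 to 0.31, spans 0 and leaves changes in either direction possible. It had an adjusted p of 0.556 with limma, and 0.0176 without control replicate 2, the library in which it was highest (range up to 0.956 over its alternatives).

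The other genes of mitochondrial gene expression were lower in abundance. The list holds 24 genes whose descriptions name a mitochondrial tRNA synthetase, translation factor or RNA function, with a median level of 18.2 TPM, and 8 (33.3%) were higher and 3 (12.5%) lower, with a median log2 fold change of 0.16. The share called in either direction, 45.8%, was near that of all tested genes, 49.3%. By direction, 22.1% of all tested genes were higher and 27.2% lower, with a median of -0.02. Among the 14 synthetases, which charge tRNAs for translation in the organelle, 6 (42.9%) were higher and 1 (7.14%) lower. Their median log2 fold change was 0.19. The share called in either direction, 50%, was again near the background of 49.3%, but the share called higher was above the 22.1% of all tested genes. The threonyl-tRNA synthetase (PAS_chr2-1_0673) rose from 5.91 ± 0.797 to 14.6 ± 1.41 TPM (SD, n = 3; log2 fold change 1.18, SE 0.12, adjusted p = 4.54e-05 with limma). The glutamyl-tRNA synthetase (PAS_chr1-1_0241) rose from 19.2 ± 0.827 to 25.2 ± 1.72 TPM. The leucyl-tRNA synthetase (PAS_chr1-4_0534) rose from 5.96 ± 0.440 to 7.77 ± 0.397 TPM and the asparaginyl-tRNA synthetase (PAS_chr1-1_0392) from 6.51 ± 0.291 to 8.25 ± 0.817 TPM. The synthetase that fell, for valine (PAS_chr3_0754), is described as serving the cytosol as well.

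Of the 6 translation factors and activators, 2 were higher and 1 lower, 50% of the list against the same 49.3%. Elongation factor Tu (PAS_chr3_0562), which brings charged tRNA to the ribosome, was lower at 245 ± 5.66 TPM, against 277 ± 8.65 TPM in the control (SD, n = 3). A gene described as another elongation factor (PAS_chr4_0033) rose from 6.45 ± 0.759 to 8.63 ± 0.0643 TPM, and a gene described as required for mitochondrial translation (PAS_chr4_0705) from 39.4 ± 2.15 to 44.3 ± 1.85 TPM. Of the 4 genes of RNA synthesis and processing, the specificity factor of the mitochondrial RNA polymerase (PAS_FragD_0015) fell from 55.9 ± 2.44 to 47.7 ± 2.76 TPM, and the other 3, the polymerase (PAS_chr1-4_0022) among them, were not called.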

How the data were processed

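Messenger RNA libraries of 6 yeast cultures were analysed, 3 of each strain. Per the labels' protocols they were made with a stranded, ligation-based kit, and the submitters' processing notes name HISAT2, TopHat2 and DESeq2 without versions. Neither their roles nor a genome build or annotation is stated in the sources used here. The deposited expression values are named FPKM per the file headers but sum to 1000000 in each library, so they were treated as deposited TPM. Depth is unknown, and no count test was run. Per the file headers, the same deposited table also lists for each gene a log2 fold change and a p-value of the authors' own comparison.

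The 5025 genes whose mean reached 1 TPM (5 did not) were analysed as log2(TPM + 1) in 1 limma fit over the whole table (limma 3.58.1, R 4.3.3), with a mean-variance trend, two-sided, with Benjamini-Hochberg adjustment over all tested genes. The procedure was tested on simulated data. The pass mark was set on shifts larger than any change among the members, so it does not cover changes this small. Subunits were read from the descriptions (37S or small subunit, 54S or large subunit). The members and lists were chosen with earlier results of these data known. Given library by library are called members whose log2 fold change reached 0.3 in size, called members that fell, and the 3 highest and 3 lowest of each subunit; of each other list (synthetases, translation factors, RNA synthesis and processing), up to 4 called genes with the largest changes are named. The valyl-tRNA synthetase, the RNA polymerase, YmS-T, MRPS8, SWS2 and the members named by counterpart class or by the authors' p were chosen after their values were seen. None of the 5030 IDs matched the reference gene table, so no coordinates or sequences are given.

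Same-numbered libraries of the strains deviated together (r across genes 0.223, 0.126 and 0.209, each over 0.1), so the replicate number was tried as a block. For differently numbered libraries r ran from -0.220 to 0.041. The values were centred within each strain, so these r depend on each other and cannot establish a pairing. The labels do not say what the number shares. The fit stayed without the block, as planned, and blocked values stand where they change a call. The other alternatives were other pseudocounts, filters, scalings, variance models, memberships, and each library left out in turn.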

Additional observations from a re-analysis of the deposited data

How the results depend on the processing

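Of the 23 called members, 12 kept their call and direction under all 15 alternatives run on each gene, and no called member changed its direction under these. Of the 36 not called, 14 gained a call under at least 1 of them. The counts of 18 higher and 5 lower were 28 and 3 with quantile normalization; the lower count was 3 without a mean-variance trend and 3 with the replicate block. With each library left out in turn the counts ranged from 11 to 16 and from 3 to 6. Among descriptions that start with the words mitochondrial ribosomal protein, 7 were higher and 0 lower. The 5 members called lower all have other descriptions. Of the subunit members without a symbol, 4 of 10 (small) and 3 of 9 (large) were called higher and 0 lower. Over all tested genes the shares were 22.1% and 27.2%. With the 2 54S proteins that lie outside the description rule (not called, chosen after the data were seen) both counts were 18 and 5. The median log2 fold change was 0.13 (small) and 0.19 (large) with quantile normalization, 0.15 (small) under the narrower descriptions, and 0.0412 to 0.110 (small) and 0.0691 to 0.118 (large) with libraries left out; the cause was not tested.

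The strain difference in the ratio of summed levels, 0.0371, was -0.0310 without YmL39 (chosen after the data were seen). Leaving that gene out also raised the mean ratio, from 0.476 to 0.803 in the control and from 0.513 to 0.772 in the ILV3 strain. These differences are therefore not on the same scale. Among uncalled genes named in the text, the log2 fold change of YmL7/YmL5 was 0.0071 under median-ratio scaling and 0.0061 after quantile normalization, and ran from -0.0769 to 0.0936 with libraries left out. With libraries left out, it ranged from -0.0085 to 0.207 for YmL37, from -0.0448 to 0.128 for YmL23 and from -0.0990 to 0.0047 for MRPL1. The deposited values keep no depth, so how far depth limits the small changes of these genes is unknown.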
